A study of Homo sapiens with 16 samples.

Results

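Secreted WNT inhibitors are extracellular proteins that keep WNT ligands from signalling. The set described here holds 10 genes, chosen by symbol with earlier results of these data known, and all 10 were found among the 18421 gene symbols that annotate the array. They were the dickkopf genes DKK1, DKK2, DKK3 and DKK4, the frizzled-related genes FRZB, SFRP1 and SFRP2, the WNT-binding gene WIF1, the esterase gene NOTUM and APCDD1. Of these, 9 had a probe set of their own. DKK2 shared its only probe set with RAC1, a small GTPase, so its level could not be told from that of RAC1. DKK3 had 2 probe sets, and the one with the higher mean was used.

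The study followed the human embryonic stem cell line H9, at passage 40 to 50, through a protocol in which activin A drives the formation of definitive endoderm, from which gut, liver and pancreas arise. Undifferentiated cells (day 0, 4 biological samples) were kept either on mouse feeder cells or, on Matrigel, in medium those feeders had conditioned, which held 20% knockout serum replacement and bFGF at 8 ng/ml. Treated cells were collected after 1 day (3 samples), 3 days (3 samples) and 5 days (4 samples) in RPMI with activin A at 100 ng/ml and serum raised in steps of 0%, 0.2% and 2%. Activin, medium and serum changed together with time, so their effects cannot be told apart, and all samples came from 1 cell line. RNA was hybridised to Human Exon 1.0 ST arrays. The deposited values are 1 intensity per gene-level probe set and array, given here as log2(intensity + 1). Such a log2 intensity can be followed over samples for 1 gene, but not set against that of another gene. In these bulk samples, fewer cells of a type and less RNA per cell cannot be told apart.

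WNT proteins are lipid-modified ligands that bind frizzled receptors together with the co-receptors LRP5 and LRP6, which stabilises beta-catenin and turns on genes through TCF and LEF factors. DKK1, DKK2 and DKK4 bind LRP5 and LRP6, while FRZB, SFRP1, SFRP2 and WIF1 bind WNT proteins themselves. NOTUM removes the lipid from WNT proteins, and APCDD1 is a membrane-anchored glycoprotein that binds WNT proteins and LRP5, so it is not secreted in the strict sense. Several of these genes, DKK1 and NOTUM among them, are themselves targets of WNT signalling. In the vertebrate embryo WNT signalling is needed for the primitive streak, and its inhibitors are made in the anterior endoderm that forms from it.

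RefSeq promoter sequences were read for 5 of the 10 genes: DKK1, FRZB, SFRP2, WIF1 and APCDD1. Those of the other genes are not reported here. The 250 bases before the start site are shown for DKK1 and FRZB, with large rises at day 5, and for SFRP2, which fell. The build is GRCh38.p14, and the intervals are chr10:52314031-52314280 (plus strand) for DKK1, chr2:182866638-182866887 (minus strand) for FRZB and chr4:153789084-153789333 (minus strand) for SFRP2. Capitals mark matches to the TCF/LEF core, searched on both strands as CTTTGAA or CTTTGAT or CTTTGTA or CTTTGTT, words that can share end bases with one on the opposite strand.
DKK1: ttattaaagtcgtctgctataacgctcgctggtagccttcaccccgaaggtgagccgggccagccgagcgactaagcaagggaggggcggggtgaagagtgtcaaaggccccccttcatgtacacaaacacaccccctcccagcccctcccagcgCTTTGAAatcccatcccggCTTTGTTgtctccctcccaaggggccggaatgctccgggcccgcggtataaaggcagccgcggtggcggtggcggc
FRZB: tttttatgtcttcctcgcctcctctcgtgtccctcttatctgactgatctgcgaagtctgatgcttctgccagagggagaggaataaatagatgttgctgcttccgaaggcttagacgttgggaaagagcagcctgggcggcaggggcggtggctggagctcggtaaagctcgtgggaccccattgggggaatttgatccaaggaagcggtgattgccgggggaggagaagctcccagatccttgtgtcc
SFRP2: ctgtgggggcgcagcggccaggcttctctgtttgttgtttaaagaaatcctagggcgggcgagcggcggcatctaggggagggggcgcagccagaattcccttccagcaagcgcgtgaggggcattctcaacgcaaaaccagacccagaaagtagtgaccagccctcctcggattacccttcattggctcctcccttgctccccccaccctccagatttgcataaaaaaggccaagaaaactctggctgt
DKK1 held 2 matches, 95 to 89 and 76 to 70 bases before its start, and FRZB, SFRP2, WIF1 and APCDD1 held 0 in this window. Among 35114 promoters of the same length, 12% held at least 1 match. The FOXH1 motif AATNNACA, of a factor that works with activin-regulated SMAD proteins, was found in 0 of these 5 promoters and in 9.88% of all. A match describes letters only, and factor binding was not measured.

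The sample labelled day 3 replicate 2 stood apart from the other day 3 samples, with a median correlation over all probe sets of 0.83 with its group, and day 5 replicate 2 had 0.858, against 0.901 to 0.962 for the other 12 samples. In day 3 replicate 2 the mean log2 intensity of 8 definitive endoderm markers was 7.36, against 10.64 and 11.01 in day 3 replicates 1 and 3 and 6.79 to 7.88 at day 0. The mean of 7 primitive streak markers was 6.51 there, against 10.04 and 9.999 in replicates 1 and 3. The mean of the 6 measured of 10 pluripotency markers was 11.77, against 11.04 and 11.09. That lay below the 12.36 to 12.61 of day 0 and the 11.91 to 12.30 of day 1. Of these markers PRDM14, DPPA4, ZFP42 and THY1 were higher there than in replicates 1 and 3. LIN28A was lower, at 12.02 against 13.47 and 13.77, as was DNMT3B, at 11.66 against 11.74 and 11.97. At day 5 the endoderm mean was 10.66 to 11.37, and it was 7.82 to 9.37 at day 1. POU5F1, NANOG, SOX2 and TDGF1 had no probe set of their own. Each result below is given with all samples and, where it changes, without day 3 replicate 2, which leaves 2 samples at day 3. That library also enters comparisons of other days, through the shared estimate of spread.

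**Figure D1:**
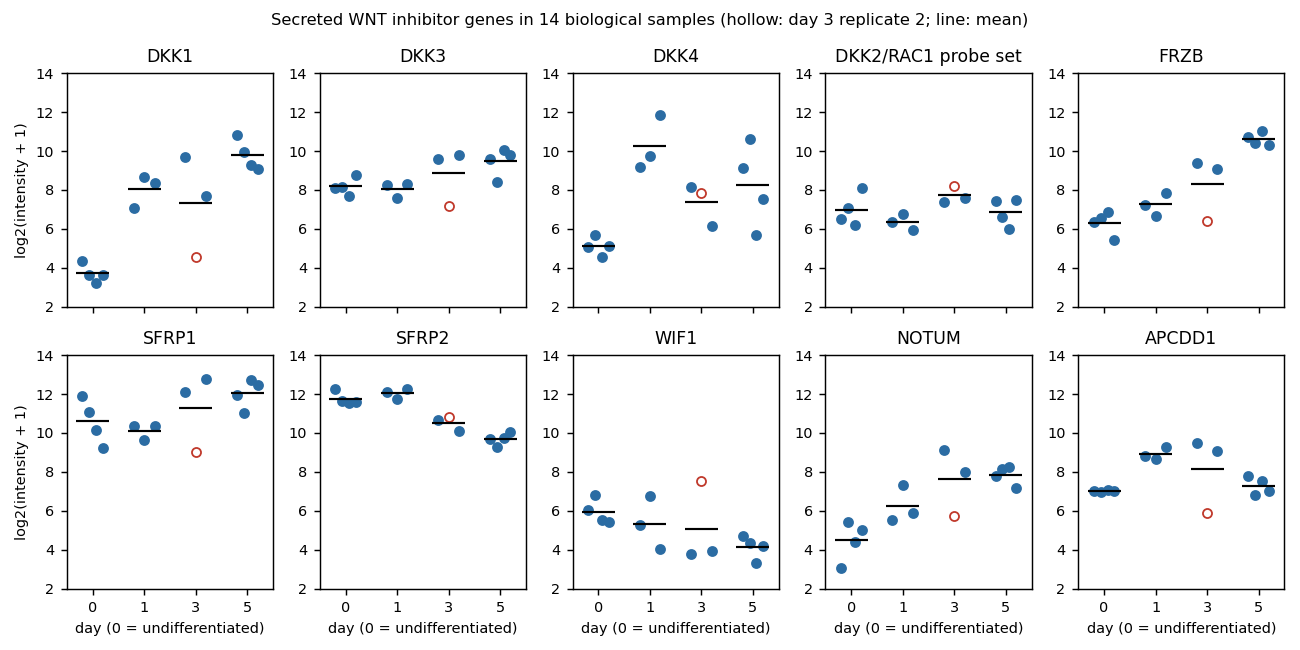
Log2(intensity + 1) of each gene (vertical axis) by day (horizontal axis), 1 point per biological sample, with the mean as a line and day 3 replicate 2 hollow; the probe set shared by DKK2 and RAC1 has its own panel. DKK1 and FRZB are at their highest means at day 5, DKK4 at day 1, SFRP2 is lowest at day 5, and the hollow point lies away from the other day 3 points in DKK1, DKK3, FRZB, SFRP1, WIF1, NOTUM and APCDD1.

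The inhibitors did not move as 1 group. Over the 5 days DKK1, FRZB and NOTUM rose and SFRP2 fell, DKK4 had its highest mean at day 1, and APCDD1 read above its day 0 level at days 1 and 3, except in day 3 replicate 2, and overlapped with it at day 5. In a moderated F test (limma) over the 3 contrasts with day 0, 5 of the 9 genes with their own probe set differed at an adjusted p under 0.05: DKK1 (adjusted p 0.00669), DKK4 (0.036), FRZB (0.00425), SFRP2 (0.0017) and NOTUM (0.041). Over all 18495 probe sets, 3.73% did. The F test calls of DKK4 and NOTUM were close to the threshold, and the count was 3 to 7 when 1 sample was left out, 3 without any 1 of day 0 replicates 1 to 4, day 1 replicates 1 and 3 or day 5 replicates 1 and 4, and 7 without day 3 replicate 2.

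DKK1, the founding dickkopf protein and an inducer of head structures, stood at 4.34, 3.63, 3.23 and 3.62 in the 4 samples of day 0 and at 7.08, 8.68 and 8.36 in those of day 1. It stood at 9.70, 4.54 and 7.68 in day 3 replicates 1, 2 and 3, and at 10.81, 9.94, 9.29 and 9.07 at day 5. Every treated sample lay above every day 0 sample, although day 3 replicate 2 did so by little, and every day 5 sample lay above every day 1 sample. At day 5 its mean was 9.78 ± 0.78, against 3.71 ± 0.46 at day 0 (SD, n = 4 each), a rise of 6.07 ± 0.83 on the log2 scale (limma, SE, adjusted p 0.00112). On the linear scale its mean intensity was 984 at day 5 and 12.6 at day 0. The low start makes the size of the rise depend on the constant added before the logarithm, and with 16 in place of 1 the difference was 4.97 (adjusted p 0.000977). At day 1 the difference was 4.33 ± 0.90 with an adjusted p of 0.121, and 0.0085 once day 3 replicate 2 was left out. At day 3 it was 3.60 ± 0.90 (adjusted p 0.192) with all samples and 4.98 ± 0.63 (adjusted p 0.0012) without that library. The 2 arrays of day 0 replicate 4, which hold the same RNA, differed by 1.09 for DKK1, while those of day 5 replicate 4 differed by 0.06.

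DKK4, a dickkopf protein that also acts on LRP6, followed another course. Its 4 samples at day 0 read 5.06, 5.68, 4.53 and 5.10, and its 3 at day 1 read 9.20, 9.75 and 11.84. At day 3 it read 8.13, 7.83 and 6.16, and at day 5 it read 9.10, 10.64, 5.67 and 7.54. All day 1 and day 3 samples were above all day 0 samples, and the day 5 samples were scattered, with replicate 3 inside the day 0 range. The difference from day 0 was 5.17 ± 0.97 at day 1 (adjusted p 0.107, and 0.0605 without day 3 replicate 2), 2.28 ± 0.97 at day 3 (adjusted p 0.515) and 3.15 ± 0.90 at day 5 (adjusted p 0.0622). None of these passed the test with all samples. In a fit of only days 1 and 0 the adjusted p was 0.0308, and without day 5 replicate 3 the day 5 difference was 4.00 (adjusted p 0.0138). Day 3 replicate 2 lay between the other day 3 samples for DKK4, unlike for DKK1. Day 3 minus day 1 was -2.89 ± 1.04 (adjusted p 0.382), with all day 3 samples below all day 1 samples. Day 5 replicate 3 had the lowest DKK4 of its group but not the lowest DKK1, and its 8 endoderm markers had a mean of 11.37, the highest of the day 5 samples.

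DKK3, a divergent dickkopf protein that is not a typical LRP6 antagonist, read 8.11, 8.16, 7.71 and 8.76 at day 0 and 8.23, 7.59 and 8.29 at day 1. It read 9.57, 7.18 and 9.79 in day 3 replicates 1, 2 and 3 and 9.60, 8.42, 10.07 and 9.82 at day 5. The 2 low values at the later days both came from replicate 2. At day 5 the difference from day 0 was 1.29 ± 0.53 (adjusted p 0.219), and its groups overlapped. Without day 3 replicate 2 the same difference had an SE of 0.35 and an adjusted p of 0.0406, and with day 5 replicate 2 left out as well it was 1.64 (adjusted p 0.00257). At day 3 the difference was 0.66 ± 0.57 with all samples and 1.497 ± 0.43 (adjusted p 0.0955) without replicate 2. The dimmer DKK3 probe set stayed between 2.81 and 5.49 in all samples and differed by 0.46 ± 0.44 at day 5 (adjusted p 0.671), so the 2 probe sets did not give the same size.

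The probe set shared by DKK2 and RAC1 ranged from 5.94 to 8.20. Its largest difference between days was 1.37 ± 0.51, day 3 minus day 1, with an adjusted p of 0.402. It did not pass the test in any of the 5 comparisons, with or without day 3 replicate 2, and no value is assigned to DKK2.

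FRZB, a WNT-binding protein first known from cartilage, read 6.33, 6.56, 6.86 and 5.40 at day 0 and 7.24, 6.67 and 7.84 at day 1. At day 3 it read 9.41, 6.43 and 9.09, and at day 5 it read 10.70, 10.43, 11.04 and 10.33. The day 5 samples lay above every sample of the other days, and day 3 replicate 2 lay inside the day 0 range. Its mean was 10.63 ± 0.32 at day 5 and 6.29 ± 0.63 at day 0 (SD, n = 4 each), a rise of 4.34 ± 0.56 (adjusted p 0.000802). That is a 20.2-fold difference on the log2(intensity + 1) scale. At day 3 the difference was 2.02 ± 0.61 (adjusted p 0.28), and FRZB rose by 2.96 ± 0.41 without replicate 2 (adjusted p 0.00195). Day 3 minus day 1 was 1.06 ± 0.65 (adjusted p 0.74) with all samples and 2.00 ± 0.43 (adjusted p 0.0319) without it. Day 5 minus day 3 was 2.32 ± 0.61 (adjusted p 0.288), and 1.37 ± 0.41 (adjusted p 0.262) without it.

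SFRP1 and SFRP2, closely related frizzled-like proteins, had differences of opposite sign at day 5, of which that of SFRP2 passed the test. SFRP2, a marker of undifferentiated stem cell cultures, read 12.26, 11.66, 11.54 and 11.61 at day 0 and 12.11, 11.74 and 12.27 at day 1. It read 10.64, 10.82 and 10.09 at day 3 and 9.70, 9.27, 9.72 and 10.06 at day 5. Days 0 and 1 overlapped, every day 3 sample was below both, and every day 5 sample was below every day 3 sample. Day 3 replicate 2 was with its group here. SFRP2 averaged 9.69 ± 0.33 at day 5 and 11.77 ± 0.33 at day 0 (SD, n = 4 each), and fell by 2.08 ± 0.26 (adjusted p 0.000725), 4.22-fold. At day 3 the difference from day 0 was -1.25 ± 0.28 (adjusted p 0.177), and SFRP2 fell by 1.40 ± 0.30 without replicate 2 (adjusted p 0.0254). Day 3 minus day 1 was -1.52 ± 0.30 (adjusted p 0.134), and -1.68 ± 0.32 (adjusted p 0.0176) without it. At day 1 the difference from day 0 was 0.27 ± 0.28 (adjusted p 1).

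SFRP1 read 11.88, 11.10, 10.14 and 9.24 at day 0, a wide spread, and 10.36, 9.63 and 10.37 at day 1. It read 12.08, 9.02 and 12.78 at day 3 and 11.96, 11.03, 12.74 and 12.48 at day 5. All day 5 samples were above all day 1 samples, while days 5 and 0 overlapped. The day 5 difference from day 0 was 1.46 ± 0.75 (adjusted p 0.364, and 0.124 without day 3 replicate 2). The 2 arrays of day 0 replicate 4, the lowest sample of that day, differed by 0.00608.

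WIF1, which binds WNT proteins through its own domain, was dim and was the only one of the 10 among the dimmest 25% of probe sets. It read 6.06, 6.79, 5.52 and 5.40 at day 0 and 5.26, 6.74 and 4.02 at day 1. It read 3.76, 7.55 and 3.92 at day 3 and 4.68, 4.32, 3.31 and 4.17 at day 5. All day 5 samples were below all day 0 samples, and day 3 replicate 2 held the highest value of all. The day 5 difference from day 0 was -1.82 ± 0.78 (adjusted p 0.243, and 0.0486 without day 3 replicate 2, also a narrow call). With 16 added in place of 1 it was -1.23, and the 2 arrays of day 5 replicate 4 differed by 1.16.

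NOTUM read 3.04, 5.44, 4.40 and 5.02 at day 0 and 5.53, 7.32 and 5.87 at day 1. It read 9.14, 5.73 and 7.97 at day 3 and 7.77, 8.13, 8.26 and 7.15 at day 5. Every treated sample was above every day 0 sample, day 3 replicate 2 included, and days 1 and 5 overlapped. NOTUM averaged 7.83 ± 0.50 at day 5 and 4.48 ± 1.05 at day 0 (SD, n = 4 each), and rose by 3.35 ± 0.69 (adjusted p 0.0128). The difference was 1.76 ± 0.75 at day 1 (adjusted p 0.752) and 3.14 ± 0.75 at day 3 (adjusted p 0.178), and at day 3 it rose by 4.08 ± 0.66 without replicate 2 (adjusted p 0.00551). Its day 0 level was dim, and with 16 added the day 5 difference was 2.63 (adjusted p 0.0118).

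APCDD1 read 6.999, 6.96, 7.07 and 7.04 at day 0, with an SD of 0.04, and 8.80, 8.67 and 9.25 at day 1. It read 9.49, 5.89 and 9.08 at day 3 and 7.79, 6.79, 7.55 and 7.02 at day 5. Day 1 was above day 0 in every sample, day 3 replicates 1 and 3 were with day 1, and day 5 overlapped with day 0 and lay below day 1 in every sample. At day 1 the difference was 1.89 ± 0.64 (adjusted p 0.549), and APCDD1 rose by 1.89 ± 0.26 without day 3 replicate 2 (adjusted p 0.0144), a 3.71-fold difference that this library enters only through the spread. At day 3 it was 1.14 ± 0.64 (adjusted p 0.693) with all samples, and it rose by 2.27 ± 0.30 without replicate 2 (adjusted p 0.00147). Day 5 minus day 3 was -0.87 ± 0.64 (adjusted p 0.999), and it fell by 2.00 ± 0.30 without replicate 2 (adjusted p 0.0342). At day 5 the difference from day 0 was 0.27 ± 0.60 (adjusted p 0.872).

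**Figure D2:**
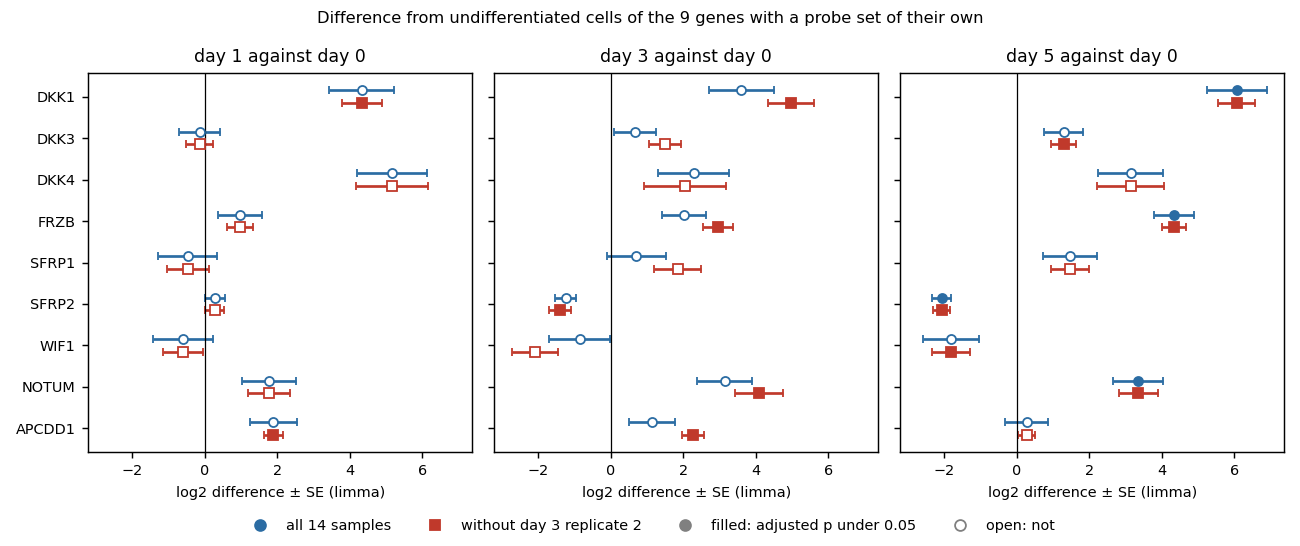
Log2 difference from day 0 (horizontal axis, limma estimate with SE) of the 9 genes with a probe set of their own, at days 1, 3 and 5, with all 14 samples (circles) and without day 3 replicate 2 (squares); filled marks have an adjusted p under 0.05. With all samples DKK1, FRZB, SFRP2 and NOTUM are filled, at day 5 only, and without that library 2, 5 and 6 of the genes are filled at days 1, 3 and 5.

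Read as counts, day 5 against day 0 gave 4 of the 9 genes past the test, 3 higher and 1 lower, where 5.46% of all probe sets were called, 2.56% higher and 2.89% lower. Without day 3 replicate 2 there were 4 higher, DKK3 added, and 2 lower, WIF1 added, where 8.73% of all were called. Groups did not overlap for 5 of the 9 genes, 3 above and 2 below, and for 14.6% of all probe sets. The median difference of the 9 genes was 1.46, with 7 above 0, and the median over all probe sets was -0.02, with 48.4% above 0.

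Day 3 against day 0 gave 0 of the 9 genes in limma with all samples, where 0.027% of all probe sets were called. At an unadjusted p under 0.05 there were 5, against 8.56% of all probe sets. Without day 3 replicate 2 there were 5 past the test, 4 higher (DKK1, FRZB, NOTUM and APCDD1) and 1 lower (SFRP2), where 3.19% of all were called, 2.05% higher and 1.14% lower. The median difference was 1.14 with all samples and 2.05 without it. Groups did not overlap for 4 of the 9 genes with all samples, against 9.82% of all probe sets, and for all 9 without that library, against 32.3%. The latter sets 2 day 3 samples against 4 of day 0. That library was left out because it stood apart in these same data, so the wider separation follows in part from leaving it out.

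Day 1 against day 0 likewise gave 0 of the 9 genes in limma, where 0.00541% of all probe sets were called, and 4 at an unadjusted p under 0.05, against 6.03% of all. Those 4 were DKK1, DKK4, NOTUM and APCDD1, and they were also the 4 whose groups did not overlap, as in 11.5% of all probe sets. Without day 3 replicate 2, DKK1 and APCDD1 passed the test, where 0.249% of all were called. The median difference of the 9 genes was 0.97, against 0.03 over all probe sets.

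Between successive stages little could be called. Day 3 against day 1 gave 0 of the 9 genes in limma (0.0324% of all probe sets), 2 at an unadjusted p under 0.05 (8.62% of all), and 2 past the test without day 3 replicate 2, FRZB higher and SFRP2 lower (2.73% of all). Day 5 against day 3 gave 0 (0.0973% of all), 3 at an unadjusted p under 0.05 (5.99% of all), and without that library 1, APCDD1, which was lower (0.157% of all). These comparisons share samples with those above.

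In day 3 replicate 2 the genes fell into separate kinds. SFRP2 at 10.82 and DKK4 at 7.83 were with the other day 3 samples or between them. FRZB at 6.43 was within the day 0 range, DKK3 at 7.18, SFRP1 at 9.02 and APCDD1 at 5.89 were below it, and WIF1 at 7.55 was above it. DKK1 at 4.54 and NOTUM at 5.73 were just above the day 0 range. Why this sample stood apart was not tested.

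Several of these inhibitors are also made by mesenchyme, so its markers and those of other cell types were read in the same samples. The summed intensity of the 7 measured of 8 mesenchyme and fibroblast markers was 1864 to 6460 at day 5, against 2306 to 6265 at day 0. A sum rests mostly on the brightest genes, and the mean log2 intensity of the same markers was 7.14 to 8.55, against 7.07 to 7.77. At days 1 and 3 the sum was 969 to 2195 and 1292 to 2958. Of this list LUM, a matrix proteoglycan, read 8.66, 10.81, 7.14 and 8.37 at day 5, above 3.82, 3.63, 5.68 and 3.57 at day 0, while COL1A1, a fibrillar collagen, read 8.90, 6.83, 9.37 and 11.10 at day 5 and 10.71, 10.58, 10.24 and 11.87 at day 0. DCN, another proteoglycan, stayed between 4.39 and 5.94 in all 14 samples, and no marker of the list was at 0. The 8 endoderm markers summed to 40720 to 54413 at day 5, against 2541 to 7168 at day 0. The mean log2 intensity of 6 visceral and parietal endoderm markers was 8.65 to 8.94 at day 5, against 7.84 to 8.26 at day 0, and APOA1, an apolipoprotein of that list, read 10.47 to 11.50 at day 5, against 6.52 to 6.71 at day 0. The sum of that list was 9210 to 17328 at day 5, against 7659 to 12085 at day 0. Not all of that list rose, and AFP read 5.05 to 6.48 at day 5, against 5.46 to 6.24 at day 0. The mean of 6 neural markers was 6.33 to 7.19 at day 5, against 6.32 to 6.60 at day 0, and PAX6, a neural transcription factor, read 8.16 to 9.90, against 3.95 to 4.82. The neural sum was 1355 to 5206 at day 5, against 2701 to 7022 at day 0. DCX of the same list went the other way, at 5.34 to 5.66 on day 5, against 6.41 to 6.78 on day 0. The mean of 7 trophoblast markers was 5.39 to 6.13 at day 5, against 5.02 to 5.77 at day 0, and GATA3, a transcription factor of that list, read 8.17 to 9.68, against 6.53 to 7.29. The trophoblast sum was 481 to 1084 at day 5, against 280 to 511 at day 0. KRT7, also of that list, read 4.99 to 6.46 at day 5, against 5.95 to 7.77 at day 0. The part of any of these cell types in the changes of FRZB, DKK1, NOTUM or SFRP2 was not tested.

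The rest of the WNT pathway was read from lists of other genes. Among 13 measured of 16 other secreted or membrane inhibitors, 1 was higher at day 5 and 0 lower, namely CER1, a cerberus-family protein that binds nodal and, in Xenopus, WNT proteins. It averaged 14.56 at day 5 and 11.58 at day 0, a rise of 2.98 ± 0.62 (adjusted p 0.0131). Without day 0 replicate 1, or without day 0 replicate 2, 0 of this list passed. At day 3 CER1 differed by 1.88 ± 0.67 (adjusted p 0.375), and it rose by 2.88 without day 3 replicate 2 (adjusted p 0.00687). The lowest day 5 differences of this list were -1.39 ± 0.46 for DRAXIN (adjusted p 0.107) and -1.16 ± 0.37 for SFRP5 (adjusted p 0.0958). Both were named after their values were seen, and the median of the list was 0.20. Of the 19 WNT ligands 0 passed the test at days 1, 3 or 5 against day 0, with or without day 3 replicate 2. The smallest p among them was that of WNT7B at day 1, which differed by 1.60 ± 0.43 (adjusted p 0.293), followed by WNT3, a ligand of the streak, with 1.79 ± 0.52 (adjusted p 0.365). WNT7B was dim, with means of 3.76 at day 0 and 5.35 at day 1. At day 3 against day 1 the ligand WNT2B differed by 2.58 ± 0.91 (adjusted p 0.373), and it rose by 3.70 without that library (adjusted p 0.0257).

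Of 21 measured receptors, co-receptors and R-spondins, 4 rose and 1 fell at day 5. LGR5, a receptor for R-spondins, rose by 5.80 ± 0.74 (adjusted p 0.000796), the R-spondin RSPO3, which strengthens WNT signalling, by 2.40 ± 0.31 (adjusted p 0.000847), and ROR2, a receptor for non-canonical WNT proteins, by 3.89 ± 0.73 (adjusted p 0.00764). LGR5 and RSPO3 were dim at day 0, with means of 4.69 and 3.92, so the sizes of their rises depend on the constant added. RSPO3 averaged 6.32 at day 5. The frizzled FZD4 rose by 2.21 ± 0.52 (adjusted p 0.024), and ROR1 fell by 1.24 ± 0.30 (adjusted p 0.0273), both named after their values were seen. There were 6 higher and 1 lower without day 3 replicate 2, with the frizzled genes FZD5 (1.88, adjusted p 0.103 with all samples and 0.0156 without it) and FZD8 (1.89, adjusted p 0.0801 and 0.0225) added, likewise named after their values were seen. With day 0 replicate 1 left out, and likewise with day 0 replicate 2 or with the day 5 sample numbered 1 left out, 3 were higher and 0 lower. At day 3 this list had 0 with all samples and, without replicate 2, 2 higher and 1 lower, namely LGR5 (4.38, adjusted p 0.00116), ROR2 (3.48, adjusted p 0.00604) and LGR4 (-1.16, adjusted p 0.05, at the threshold).

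WLS, which carries WNT proteins to the cell surface, rose by 3.78 ± 0.51 (adjusted p 0.001), the 1 of 6 measured secretion genes that passed. SULF2, a sulfatase that trims heparan sulfate, passed as well without day 3 replicate 2 (1.56, adjusted p 0.193 with all samples and 0.0317 without it), and at day 3, also without it, WLS rose by 2.76 (adjusted p 0.000783, against 0.277 with all samples). Of 11 cytoplasmic components 0 passed, and of 19 measured nuclear factors and targets 1 did, TNFRSF19, which rose by 1.82 ± 0.39 (adjusted p 0.0159), though 0 of the list passed without day 0 replicate 2. At day 3 TNFRSF19 rose by 1.45 without day 3 replicate 2 (adjusted p 0.0352). At day 3 against day 1, also without it, LGR5 (3.40, adjusted p 0.0114), WLS (1.76, adjusted p 0.0198), SULF2 (2.18, adjusted p 0.0473) and TNFRSF19 (1.71, adjusted p 0.0248) were higher. AXIN2, a feedback target of beta-catenin, differed by 0.50 ± 0.53 (adjusted p 0.714), and SP5, another target, by 1.25 ± 0.46 (adjusted p 0.157), both also named after their values were seen. Others of that list differed downward, such as MYC by -0.96 ± 0.34 (adjusted p 0.142) and CCND1 by -0.85 ± 0.56 (adjusted p 0.512), likewise named afterwards. The median difference of the nuclear factors and targets was -0.10. The median differences of these lists at day 5 lay between -0.17 for the cytoplasmic components and 0.30 for the WNT ligands, and that of the 9 inhibitors was 1.46; the lists were chosen with earlier results known, and no test set them against each other.

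**Figure D3:**
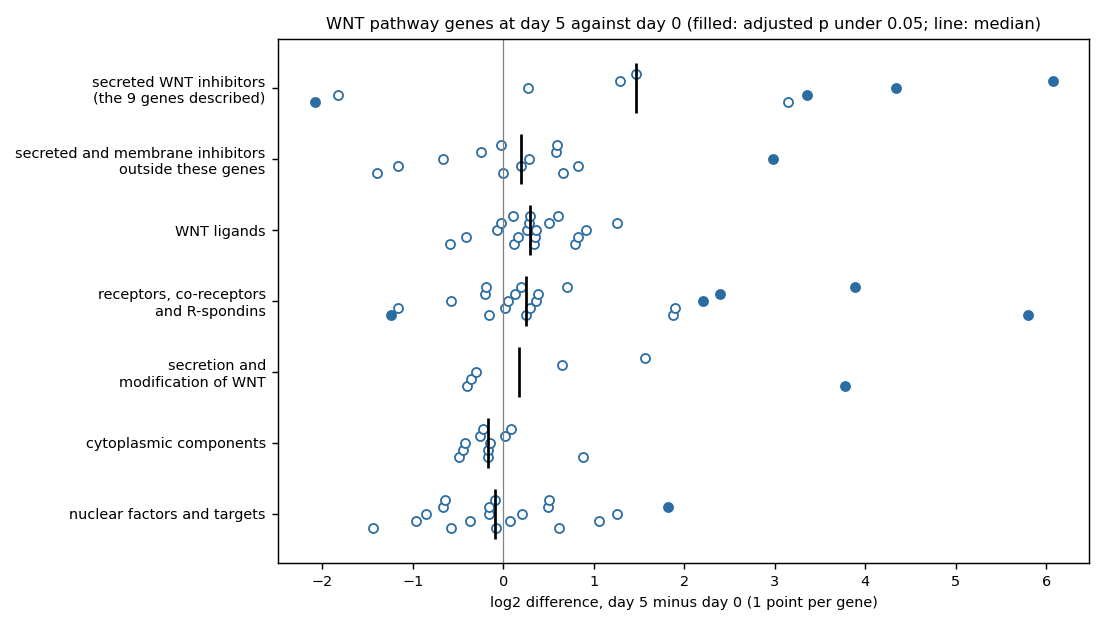
Log2 difference of day 5 minus day 0 (horizontal axis) for each measured gene of the WNT pathway, 1 point per gene, by list (vertical axis), filled where the adjusted p was under 0.05, with the list's median as a line. The inhibitors described here spread from -2.08 for SFRP2 to 6.07 for DKK1, while the cytoplasmic components stay within 1 unit of 0. Other lists spread widely too: the receptors, co-receptors and R-spondins from -1.24 for ROR1 to 5.80 for LGR5, and the secretion genes up to 3.78 for WLS.

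The genes whose levels ran most alike were found by the correlation of log2 intensity over the 14 samples, which share arrays and the order of days. For DKK1 they were GABRB2 (Pearson r = 0.963), ARHGAP29 (0.944) and RASGEF1B (0.940). For FRZB they were ST8SIA4 (0.988), LGR5 (0.978) and MBNL3 (0.977), and for NOTUM they were ARHGAP29 (0.920), CCDC92 (0.918) and TCEAL9 (0.913). For SFRP2 they were TAP2 (0.969), GLB1L3 (0.964) and PTPRZ1 (0.962), and for DKK4 they were TRIM36 (0.859), CEP135 (0.840) and AMIGO2 (0.839). Without day 3 replicate 2 these 15 values of r moved by at most 0.0117.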

How the data were processed

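RNA of 14 biological samples was measured on 16 arrays, since replicate 4 of days 0 and 5 was hybridised to a pair of arrays each. The authors deposited 18495 linear intensity values per array, 1 per gene-level probe set, with array medians of 245.1 to 246.3. The submitters' processing notes name hg18. How probe signals were summarised, background-corrected or scaled is not given in the sources used here. Arrays have no read depth, so the number of biological samples, 3 or 4 per day, limits precision.

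Values were taken to log2(intensity + 1), technical arrays were averaged (avearrays), and a limma model (3.58.1, under R 4.3.3) with 1 mean per day was fitted to all 14 samples, with lmFit and then eBayes. P-values were adjusted by Benjamini-Hochberg over all probe sets and read at 0.05. The rule names all 10 genes, of each list of other WNT genes up to 3 past the test (or the 2 with the smallest p), and per gene the 3 most correlated probe sets with 1 symbol. Genes, lists, tests and alternatives were chosen with earlier results of these data known. Symbols came from GEO's platform annotation: 14577 probe sets had 1, 2849 several and 1069 none. The fit was tested on simulated data. Promoters are RefSeq's. Figures used matplotlib 3.10.9.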

Additional observations from a re-analysis of the deposited data

How the results depend on the processing

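The rises of DKK1, FRZB and NOTUM and the fall of SFRP2 at day 5 passed the test under all 27 alternatives, with differences of 4.97 to 6.31, 4.05 to 4.53, 2.63 to 3.67 and -2.20 to -1.91 and adjusted p of at most 0.00592, 0.00421, 0.0459 and 0.00391. The numbers of the 9 genes past the test ran, with 1 sample left out, from 4 to 6 at day 5 against day 0 (4 with all samples), 0 to 5 at day 3 and 0 to 2 at day 1 (0 each), 0 to 2 at day 3 against day 1 and 0 to 1 at day 5 against day 3 (0 each), and 3 to 7 in the F test (5). The highest of each came without day 3 replicate 2. Leaving out day 5 replicate 2 as well gave 3 genes at day 1 (0.66% of all probe sets called), 6 at day 3 (5.72%), 3 at day 3 against day 1 (6.37%), 1 at day 5 against day 3 (0.0973%) and 8 in the F test (11.5%). A fit of only days 1 and 0 gave 3 genes (0.108% of all). Array weights, whose estimation stopped before convergence and which ran from 0.0972 for day 3 replicate 2 to 17.3 for day 1 replicate 1, gave 4, 7 and 7 genes at days 1, 3 and 5 (13.7%, 15.1% and 16.2% of all probe sets), 8 at day 3 against day 1 (34.1%), 2 at day 5 against day 3 (4.31%) and 9 in the F test (45.5%). The counts of calls were within 1.5 times of the main ones with either technical array alone, all 16 arrays, quantile normalization, median centring, the dimmest 25% left out, a pseudocount of 16, a variance trend, or the mean over both DKK3 probe sets. The deposited arrays already had medians of 245.1 to 246.3 and looked quantile normalized. Quantile normalization and median centring could therefore change little, and their counts say little about robustness.

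Some differences that had not passed the test changed sign. Day 3 minus day 1 became 0.65 for DKK1 and 0.38 for APCDD1 without day 3 replicate 2, also with day 5 replicate 2 left out, and 1.81 and 0.47 with array weights, where DKK1 passed (adjusted p 0.0102). Day 5 minus day 3 became, without day 3 replicate 2, without both, and with array weights, -0.73, -0.83 and -0.95 for NOTUM. Without both it became 0.21 for WIF1 and -0.038 for SFRP1, and with array weights -0.70 for DKK4. DKK3 at day 1 became 0.0062 with the replicate block and 0.037 with array weights. With 1 sample left out, these differences ran, at day 1 against day 0, from -0.31 to 0.075 for DKK3 and -1.31 to 0.057 for WIF1. At day 3 against day 0 that of SFRP1 ran from -0.038 to 1.84, and at day 5 against day 0 that of the DKK2 and RAC1 probe set from -0.35 to 0.28. At day 3 against day 1 they ran from -1.93 to 0.65 for DKK1, -1.50 to 0.44 for WIF1 and -1.42 to 0.38 for APCDD1. At day 5 against day 3 they ran from -0.21 to 1.10 for DKK3, -0.38 to 1.498 for SFRP1, -1.62 to 0.28 for WIF1 and -0.73 to 0.98 for NOTUM. The cause was not tested.

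The labels give the days shared replicate numbers but no shared origin, and same-numbered samples did not all deviate together: 10 of 19 pairs correlated above 0.1 (range -0.28 to 0.65), and 18 of 38 samples and days had their own number as the best match. Of pairs with different numbers, 21 of 54 did so, and the medians were 0.118 and -0.057. Day 3 replicate 2 correlated 0.51 and 0.65 with replicate 2 of days 1 and 5. With replicates 2 and 3 of day 0 it correlated 0.09 and 0.35. With the replicate block 4 genes passed at day 5 (7.83% of all probe sets), 0 in the other comparisons of days and 3 in the F test (4.64%).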
